A study of Mus musculus with 6 samples.

Results

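The 34 interferon-response genes described here were chosen by measured values of these same arrays: they had been noticed for lower signals in pools of big dorsal root ganglion neurons than in pools of medium to small neurons. Each was represented by its probe set with the highest mean log2(signal + 32) over the arrays. A probe set carrying only that gene's symbol was present for 32 of the 34, among 18193 genes in all. Isg15 (its probe set also carries a second symbol) and Ifi44 (no probe set listed under it) were not measured. Since lower signals in big pools are what selected the genes, their differences between size classes are given as a description and carry no test.

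RNA was taken from pooled neurons of mouse dorsal root ganglia, the sensory neurons whose cell bodies lie beside the spinal cord, and each of 6 pools was measured on 1 Affymetrix expression array. The pools formed 3 title codes by 2 size classes. Code L3-B held control neurons, 50 per pool, in 1 pool of big and 1 pool of medium to small diameter. Codes L3-S and L6-R each held 1 big and 1 medium to small pool of 20 neurons, all retrogradely labelled with DiI, a lipophilic dye that moves along axons to the soma. The sources used here name neither what the codes stand for nor where the dye was placed, and give no strain, age or number of animals. The labels do not say whether pools came from separate animals. With 1 array for each code and size class, the additive fit takes its spread from unequal size gaps between codes, not from replicate pools. A p-value covers that spread among these pools and no more, and the spread may be technical.

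Interferons are secreted proteins, and cells release those of type I on sensing foreign nucleic acid. Type I interferons act through a receptor that activates a complex holding STAT2 and IRF9, which binds the interferon-stimulated response element in front of target genes, while interferon gamma acts through its own receptor and a gamma-activated site. The target genes encode antiviral effectors, nucleic acid sensors, GTPases that attack intracellular parasites, and the machinery that loads peptides onto class I histocompatibility molecules. Neurons respond to interferon as well.

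Signals are linear array intensities, and a signal under 32 lies near the background of such arrays. Differences are those of log2(signal + 32), which shrinks changes between low signals, so that an order among low signals is not resolved. Of the 32 genes, 6 stayed under 32 in all 6 arrays, 10 were at or above 32 in every array, 13 reached 100 in at least 1 array, and 4 (Igtp, Irf1, B2m and Ifi35) reached 100 in every array. The filter for tests kept the brighter 50% of all genes, ranked on their mean log2 value (9097 genes, from 6.41 up) and with them 12 of these genes. Gbp3, at a mean of 6.47, was the last to pass, and Ifit3 and Eif2ak2, both at 6.37, were just below it. Such a filter favours a gene that is high in only some arrays, so counts over the 12 describe those genes and not the whole list. The arrays differed in the ratio of 3' to 5' Actb control signal, a ratio that tends to grow with RNA breakdown, from 3.73 to 13.9. In pools of cells, fewer cells that carry a transcript and less of it per cell cannot be told apart.

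Of all 32 measured genes, each taken by its brightest probe set, 15 were lower in the big pool in all 3 codes. A further 9 were lower in 2 codes, 6 in 1 code and 2 (Eif2ak2 and Dhx58) in none. The median difference, big minus medium to small, was -0.27 log2 in L3-B, -0.52 in L3-S and -0.24 in L6-R. Over all 18193 genes the medians were 0.025, 0.003 and -0.014. Over the 12 tested genes they were -0.295, -0.708 and -0.244, beside -0.02 over all tested genes in each code. Of the 12 tested genes, 8 were lower in the big pool in all 3 codes, beside 12.6% of all genes tested. A big pool lower by at least 1 log2 was seen for 6 of the 32 genes in L3-B (5 of the 12 tested, beside 2.73% of all tested genes), and for 8 of the 32 in L3-S (5 of the 12, beside 0.769%). None of the 32, and so 0 of the 12, fell that far apart in L6-R, where 1.25% of all tested genes did. Because the choice of genes used this contrast, nothing is read from these shares. The gap in L6-R was shallower for the genes with the deepest gaps elsewhere, but with 1 array for each code and size class a difference between gaps has no residual and was not tested.

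**Figure D1:**
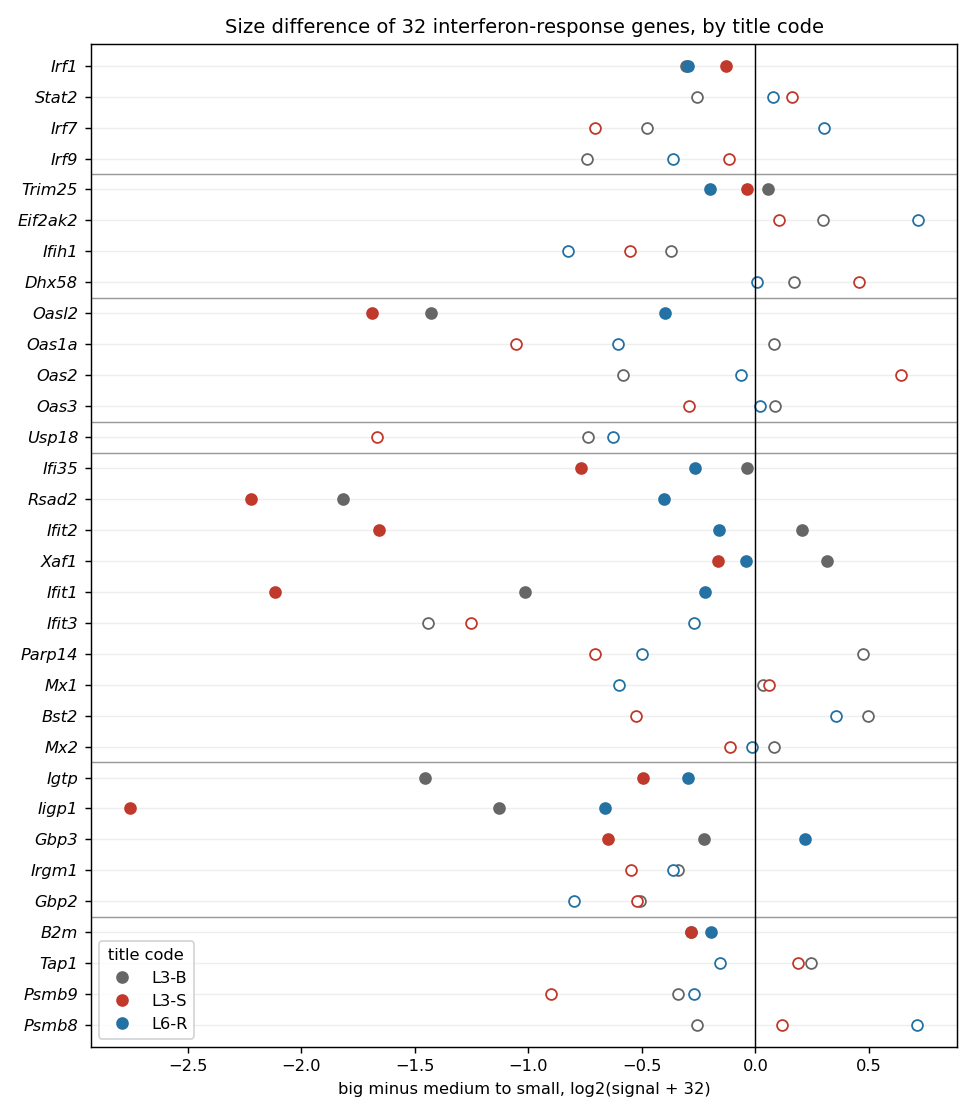
Difference between the big and the medium to small pool in log2(signal + 32) for each of the 32 measured genes, ordered by role from transcription factors at the top to antigen processing at the bottom, with 1 point per title code (filled points: the 12 tested genes). The deepest points belong to Iigp1, Rsad2 and Ifit1 in L3-S, followed by Rsad2 in L3-B and then by Oasl2, Usp18 and Ifit2 in L3-S. No L6-R point lies below -1.

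The transcription factors of the response were at low to moderate signals, with gaps shallower than 1 log2. Irf1, a factor that interferon gamma induces quickly, had signals of 158 and 203 (L3-B, big first and medium to small second, as in all later pairs), 141 and 157 (L3-S) and 120 and 155 (L6-R). The big pool was the lower one each time, and its mean gap over codes was -0.24 ± 0.18 log2 (SE of the additive fit). Stat2, which encodes a subunit of the type I complex, had 52 and 69, 50 and 42, and 47 and 43 in the same order, so its big pool was lower in L3-B only. Irf7, which amplifies type I interferon production, was at 27 and 51, 8 and 33, and 63 and 45, and turned direction in L6-R. Irf9, the DNA-binding member of that complex, was at 2 and 25 (L3-B), 32 and 38 (L3-S) and 47 and 70 (L6-R). Its big pool was the lower one in every code, mostly within or near background.

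Among the sensors of foreign RNA and the kinase that responds to it, no common size gap was seen. Trim25, the ubiquitin ligase that activates the sensor RIG-I, had signals of 54 and 51 (L3-B), 160 and 165 (L3-S) and 397 and 460 (L6-R). The code, not the size class, set its order: both L3-B pools were lowest and both L6-R pools highest, with no overlap between codes. Eif2ak2, the double-stranded RNA kinase PKR that halts translation, was at 48 and 33, 42 and 37, and 109 and 54. On this probe set it was higher in the big pool of every code. Its dimmer probe sets ran the other way in L3-B, at 11 and 40 (-0.74 log2) and 5 and 50 (-1.16). In L6-R 1 of them was lower in the big pool (24 and 34) and the other higher (68 and 33). Dhx58, a regulatory relative of RIG-I, was not lower in any big pool on the probe set used (36 and 28, 33 and 16, 13 and 13). The sensor gene Ifih1, which encodes MDA5, went the other way, at 10 and 23, 11 and 31, and 23 and 65. On the probe sets used, only 1 of these 4 genes, Ifih1, was lower in big pools throughout.

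Oligoadenylate synthetases make the messenger that activates RNase L, and the product of the family member Oasl2 carries ubiquitin-like repeats. Oasl2 was the bright one, with signals of 111 and 352 (L3-B), 99 and 389 (L3-S) and 249 and 338 (L6-R). The big L3-B and L3-S pools stood well below the other 4 arrays, and the gaps were -1.43, -1.69 and -0.40 log2. Oas1a passed 32 in the L3-S medium to small pool alone, at 63, against 4 to 22 in the other 5 arrays. Oas2 (4 to 36) and Oas3 (4 to 28) lay near background, so that no order is read from them. Usp18, the protease that takes ISG15 off proteins and also dampens the type I receptor, was at 11 and 40, 3 and 79, and 11 and 34. All 3 big pools of Usp18 were under 32 and all 3 medium to small pools were above it.

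Deep gaps were seen among the antiviral effectors, though the deepest of the list was that of the GTPase gene Iigp1 (-2.75 log2 in L3-S). Rsad2, which encodes viperin, an enzyme that makes a chain-terminating nucleotide, had signals of 27 and 177 (L3-B), 49 and 347 (L3-S) and 110 and 156 (L6-R). Every big pool lay below every medium to small pool, and the gaps were -1.82, -2.22 and -0.40 log2. On the scale of signal + 32, the medium to small pool was 4.67-fold higher in L3-S and 1.32-fold higher in L6-R. A dimmer Rsad2 probe set (1 and 19, 35 and 4, 1 and 21) ran the other way in L3-S, by 0.91 log2, at signals around background.

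Ifit1, a protein that binds viral RNA with unmethylated caps, had signals of 3 and 39 (L3-B), 47 and 311 (L3-S) and 90 and 110 (L6-R). The L3-S medium to small pool was the highest array and L3-B big the lowest, with gaps of -1.01, -2.12 and -0.22 log2. Ifit3, its binding partner, was at 6 and 70, 38 and 134, and 45 and 61, the same order within each code. Ifit2, a relative that also binds RNA, was at 50 and 39, 82 and 327, and 101 and 116. For Ifit2 the wide gap was in L3-S alone (-1.66 log2), and in L3-B the big pool was the higher one by 0.21.

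Ifi35, a cytokine-induced leucine zipper protein and the brightest gene of the list, had signals of 724 and 745 (L3-B), 610 and 1059 (L3-S) and 2442 and 2946 (L6-R). Both L6-R pools lay above the other 4 arrays, and the size gaps were -0.04, -0.77 and -0.27 log2. Xaf1, a partner of the apoptosis inhibitor XIAP, was at 131 and 99, 54 and 64, and 84 and 87, highest in both L3-B pools. Parp14, an ADP-ribosyltransferase, was under 32 except in the L3-S (59) and L6-R (47) medium to small pools. Mx1 and Mx2, dynamin-like GTPases that trap viral nucleocapsids, and Bst2, which tethers budding virus to the cell, ranged from 1 to 27 and stayed under 32 in all arrays.

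**Figure D2:**
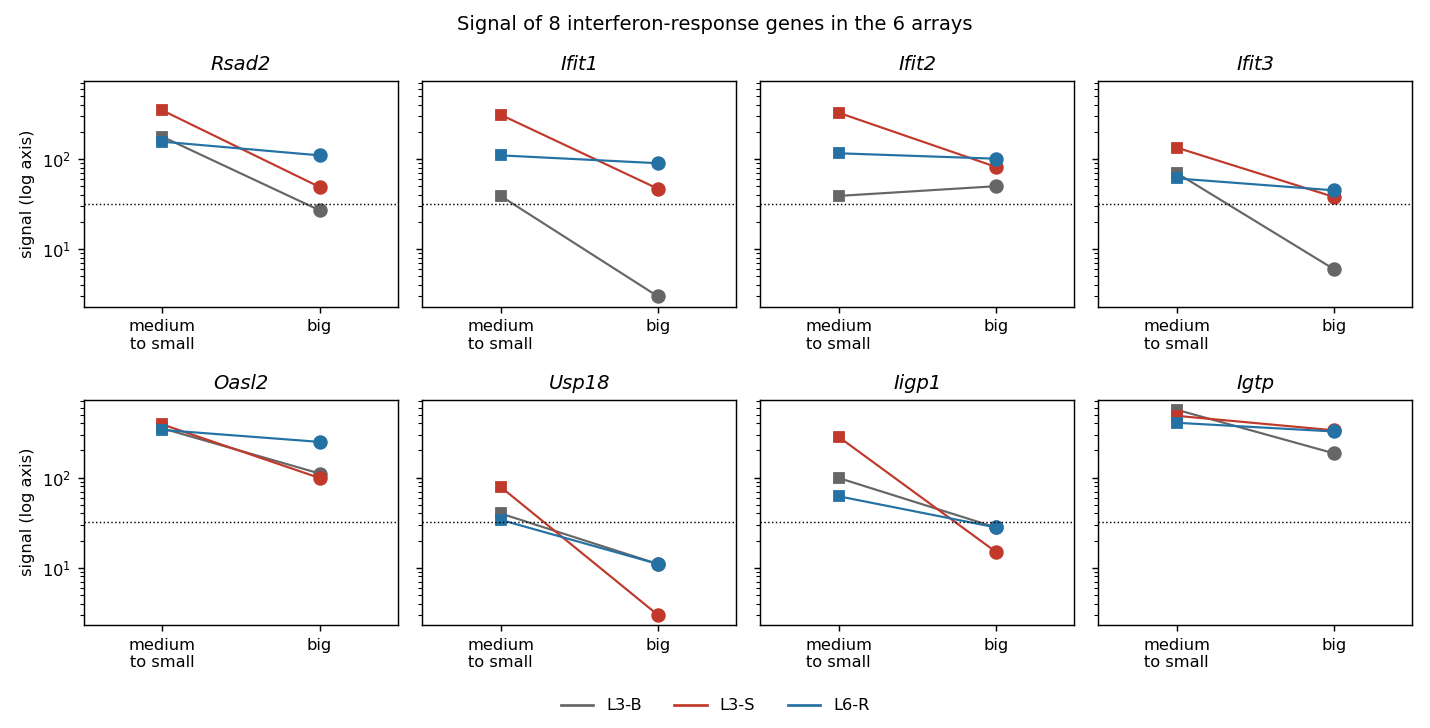
Signal (log axis) of 8 interferon-response genes in the medium to small (squares) and the big (circles) pool of each title code, 1 array per point, with a dotted line at a signal of 32. Lines join the 2 pools of a code: the L3-S line falls from 347 to 49 for Rsad2 and from 311 to 47 for Ifit1, while the L6-R lines fall from 156 to 110 and from 110 to 90.

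The immunity-related GTPases and guanylate-binding proteins, which act on the vacuoles of intracellular parasites, were mostly lower in big pools, 4 of the 5 in every code. Igtp had signals of 186 and 566 (L3-B), 335 and 485 (L3-S) and 325 and 406 (L6-R). Each big pool of Igtp was below each medium to small pool, and its wide gap was in L3-B (-1.46 log2). Iigp1 had 28 and 99, 15 and 283, and 28 and 62, with all 3 big pools under 32. Its gap of -2.75 log2 in L3-S placed it first of the 9097 tested genes ordered from the lowest difference in that code, and its second probe set ran the same way (1 and 36, 6 and 111, 7 and 35). Gbp3 was at 44 and 57, 28 and 62, and 89 and 72, and Gbp2 (1 and 15, 29 and 56, 23 and 63) and Irgm1 (21 and 35, 28 and 55, 32 and 51) were dimmer. Gbp3 was the exception among the 5, with the higher signal in the big pool of L6-R.

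In antigen processing and presentation, B2m, the light chain of class I molecules, was bright in every array: 781 and 957 (L3-B), 449 and 554 (L3-S) and 884 and 1017 (L6-R). Its big pool was slightly lower each time (-0.28, -0.28 and -0.20 log2), and both L3-S pools were the lowest. The immunoproteasome subunit gene Psmb9 was at 8 and 18, 4 and 35, and 18 and 28, lower in each big pool but near background. Psmb8, the other such subunit (1 to 28), and the peptide transporter gene Tap1 (15 to 31) stayed under 32.

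Within the whole array, 5 of the tested genes lay at the extreme of the L3-S contrast. Ordered from the lowest big minus medium to small difference among 9097 genes, Iigp1 was at rank 1, Rsad2 at 3, Ifit1 at 5, Oasl2 at 11 and Ifit2 at 12. The same genes were at ranks 157, 10, 235, 52 and 6340 in L3-B, and at 434, 1242, 2427, 1256 and 2974 in L6-R. Igtp stood at 44 in L3-B and at 662 and 1858 in L3-S and L6-R. The L3-S medium to small pool was the array with the highest value for 13 of the 32 genes and for 5 of the 12 tested ones, beside 14.9% of all tested genes. These ranks use the values that chose the genes, and are given without a test. The Actb 3' to 5' ratio was higher in the big than in the medium to small pool of L3-B (13.9 and 3.73), lower in L3-S (5.42 and 12) and alike in L6-R (8.31 and 8.42). Its part in the size differences was not tested.

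**Figure D3:**
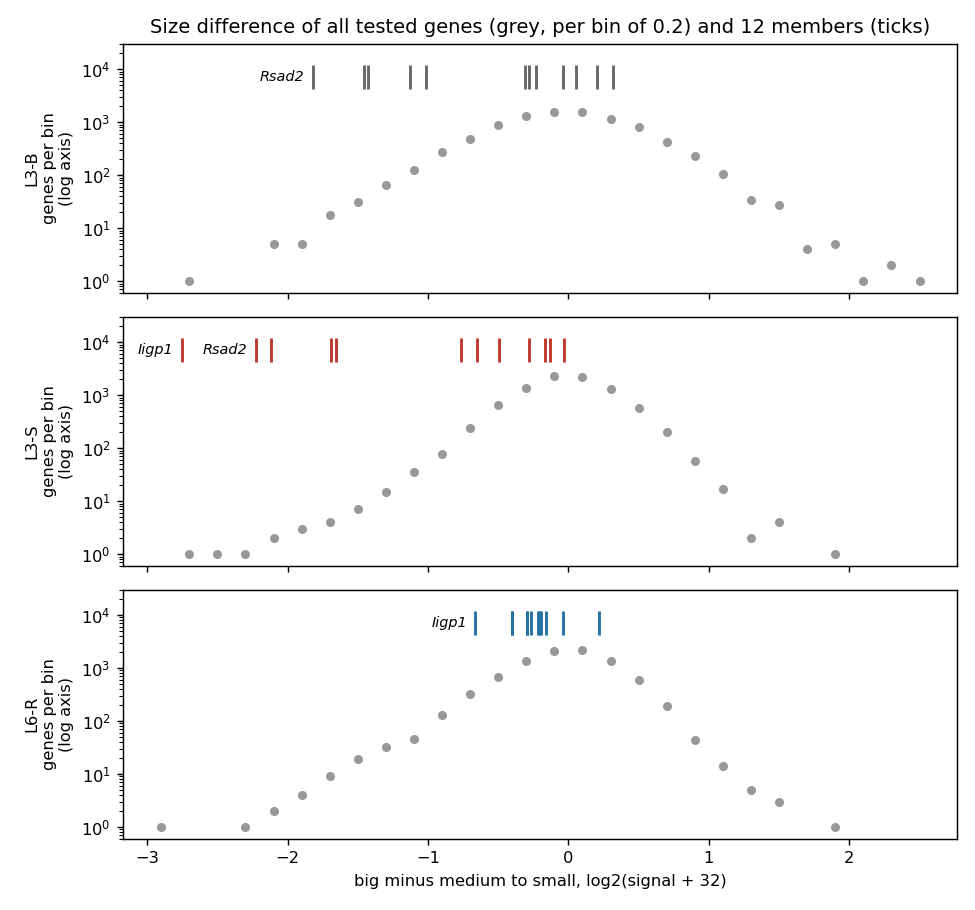
Number of tested genes (grey points, log axis) by their difference between the big and the medium to small pool in log2(signal + 32), 1 panel per title code, with the 12 tested interferon-response genes as ticks. In L3-S, 5 ticks lie below -1.5 in the thin lower tail, led by Iigp1 at -2.75, and in L6-R the lowest tick, Iigp1, is at -0.66.

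Markers of other cells that pools could hold are given beside these gaps. Of 23 macrophage and microglia markers, 10 stayed under 32 in all arrays, and their summed signal was 462 and 398 (L3-B), 580 and 573 (L3-S) and 757 and 1338 (L6-R). All 13 measured lymphocyte markers summed to 77 to 150 per array, and 11 of them stayed under 32 in every array. Blood cell markers summed to 127 to 195 in 5 arrays and to 1118 in L6-R medium to small, where S100a8 reached 440, Ngp 359 and S100a9 167. Of the 23 macrophage and microglia markers, 4 were lower in the big pool of every code. Lyz1 among them was at 3 and 29, 79 and 149, and 66 and 319. In L3-B and L3-S the big pool was the higher one for Csf1r (64 and 25, 71 and 18). Lyz2 ran likewise there (27 and 19, 43 and 38), near background. Satellite glia and Schwann cell markers summed to 22354 and 19809 (L3-B), 22351 and 26530 (L3-S) and 27447 and 32983 (L6-R). Such a sum is led by its brightest markers, in L3-B S100b and Scn7a, and single markers differed from it. S100b was at 6832 and 5546, 5149 and 5753, and 5114 and 4918. Apoe was at 540 and 913, 2764 and 3745, and 2394 and 5224. Fabp7 was at 272 and 250, 675 and 1766, and 499 and 1308, and Mbp at 468 and 332, 480 and 1073, and 1179 and 2857. Both had wide gaps in L3-S and L6-R. Over the 16 tested markers of this list the median gaps were 0.275, -0.193 and -0.319 log2, and 2 were lower in every big pool. Markers of endothelium, pericytes and connective tissue summed to 674 and 570, 1670 and 1761, and 1388 and 2392, with 6 of 20 under 32 in all arrays. The part of such cells in the size differences of the interferon-response genes was not tested. As a check of the labelled cell type, the 12 pan-neuronal markers, all among the tested genes, summed to 55298 to 75897.

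The promoters of the listed genes can be set side by side, whether or not the genes were lower in big pools. RefSeq promoter windows (GRCm38.p6, 250 bases before to 50 after the start) were matched by symbol for 27 of the 34 genes. The letters GAAANNGAAA, a form of the interferon-stimulated response element, occurred on either strand in 15 of the 27 (55.6%), against 3.99% of the 27025 genes and 3.44% of the 32851 windows in that table. Letters of the gamma-activated site, TTCNNNGAA, which read the same on both strands, occurred in 8 of the 27 (29.6%) against 9.55% of genes. The 27 include Isg15 and Ifi44, which were not measured. All were listed as interferon-response genes, so a high share of such letters follows from the list and is no result of these arrays. The match is a description of letters and says nothing of binding in these neurons. Printed here are, for 5 of the 7 roles, the brightest gene that holds GAAANNGAAA before its start, as the 250 bases upstream, with the matching letters in capitals (on the printed strand, or as TTTCNNTTTC where the match is on the other strand).
Stat2 (chr10:128270248-128270497, plus strand): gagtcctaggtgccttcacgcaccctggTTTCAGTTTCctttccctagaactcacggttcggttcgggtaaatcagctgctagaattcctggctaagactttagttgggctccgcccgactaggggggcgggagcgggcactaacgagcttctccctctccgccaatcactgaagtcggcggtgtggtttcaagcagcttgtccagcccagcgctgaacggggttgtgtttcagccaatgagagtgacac
Oas1a (chr5:120907526-120907775, minus strand): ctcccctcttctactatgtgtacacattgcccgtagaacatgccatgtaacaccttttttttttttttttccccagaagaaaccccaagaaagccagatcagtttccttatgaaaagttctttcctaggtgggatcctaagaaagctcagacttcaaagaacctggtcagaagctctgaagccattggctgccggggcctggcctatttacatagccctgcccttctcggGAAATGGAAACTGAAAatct
Rsad2 (chr12:26456453-26456702, minus strand): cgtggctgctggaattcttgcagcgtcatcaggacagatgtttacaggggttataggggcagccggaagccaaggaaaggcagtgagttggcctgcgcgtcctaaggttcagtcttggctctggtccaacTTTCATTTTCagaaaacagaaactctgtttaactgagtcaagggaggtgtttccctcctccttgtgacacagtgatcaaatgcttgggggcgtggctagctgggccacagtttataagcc
Igtp (chr11:58199306-58199555, plus strand): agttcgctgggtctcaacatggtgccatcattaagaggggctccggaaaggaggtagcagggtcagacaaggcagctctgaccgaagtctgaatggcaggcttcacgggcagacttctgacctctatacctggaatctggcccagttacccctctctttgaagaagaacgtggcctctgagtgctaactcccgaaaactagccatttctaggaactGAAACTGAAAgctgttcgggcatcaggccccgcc
B2m (chr2:122147437-122147686, plus strand): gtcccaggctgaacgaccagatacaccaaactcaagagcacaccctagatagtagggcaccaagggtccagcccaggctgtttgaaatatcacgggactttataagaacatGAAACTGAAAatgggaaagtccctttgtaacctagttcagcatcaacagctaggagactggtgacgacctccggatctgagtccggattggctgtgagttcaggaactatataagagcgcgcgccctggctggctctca

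In these windows the match began 222 bases before the start in Stat2, 120 in Rsad2, 139 in B2m and 34 in Igtp. In Oas1a a pair of overlapping matches began 20 bases before it. Rsad2 and Igtp, with deep gaps in L3-B, held the letters, and so did B2m and Stat2, whose gaps were shallow. Oasl2 and Ifit2, which had gaps of -1.69 and -1.66 log2 in L3-S, held none in the window. Ifi35 and Trim25, the genes that differed between codes, held no GAAANNGAAA there either. Of the 11 tested genes with a window, 5 held it.

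Title codes were then compared within size classes, a contrast that the choice of genes did not use. L6-R against L3-S is the pair of codes that share DiI labelling and pool size. Of the 12 tested genes, 2 rose in L6-R, 0 fell and 10 did not pass, beside 3.18% of all genes that passed (limma additive model, Benjamini-Hochberg adjusted p under 0.05). At an unadjusted p under 0.05, 3 were higher and 0 lower. Ifi35 rose by 1.70 ± 0.25 log2 (SE of the fit, 2 arrays in each code; adjusted p = 0.0108), 3.24-fold on the scale of signal + 32. It was higher in both size pairs, by 1.95 in the big and 1.45 in the medium to small pools. Trim25 rose by 1.24 ± 0.22 log2 (adjusted p = 0.0224), with 1.16 and 1.32 in the 2 pairs. B2m was higher by 0.89 ± 0.22 log2 in both pairs (0.93 and 0.84) without passing (adjusted p = 0.0753). The median over the 12 was 0.13 log2, against -0.01 over all tested genes. Trim25 lost its call in 7 of 14 alternative settings, among them without L3-S big (adjusted p = 0.0561), L3-S medium to small (0.0598), L6-R big (0.121) or L6-R medium to small (0.247). Ifi35 lost its call in 1 of 15, without L6-R big (adjusted p = 0.0527).

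Rsad2, Iigp1, Oasl2, Ifit1 and Ifit2, with deep size gaps, shared a direction within each size pair. All were higher in L6-R in the big pair and lower in the medium to small pair. Igtp was lower in both (-0.04 and -0.24 log2). Differences within a pair share arrays with the size gaps that chose the genes, so nothing is read from them. In the big pools, L6-R exceeded L3-S for Rsad2 by 0.81, for Ifit1 by 0.63 and for Oasl2 by 1.10 log2, and in the medium to small pools the same differences were -1.01, -1.27 and -0.19. Over both pairs Rsad2 differed by -0.10 ± 0.39 log2 (adjusted p = 0.935) and Iigp1 by -0.70 ± 0.44 (adjusted p = 0.496). A mean over 2 pairs of opposite sign says little about either.

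The 2 genes that passed have several probe sets, and those above background ran alike between codes. For Ifi35, a second probe set was at 88 and 146, 166 and 169, and 303 and 552 (L6-R minus L3-S 1.15 log2), and the third at 50 and 101, 76 and 69, and 250 and 197 (1.28). In all 3 the lowest L6-R array exceeded the highest array of the other codes. Size gaps differed between them: the third was higher in the big pool in L3-S and L6-R (0.09 and 0.30 log2), unlike the set used. For Trim25, the second probe set was at 39 and 21, 68 and 70, and 159 and 183 (1.01), the same order of codes, and the third was at 1 to 21, under 32 throughout. The probe sets used for both genes, and the second one of Ifi35, have designs in which probes may bind transcripts of other genes.

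**Figure D4:**
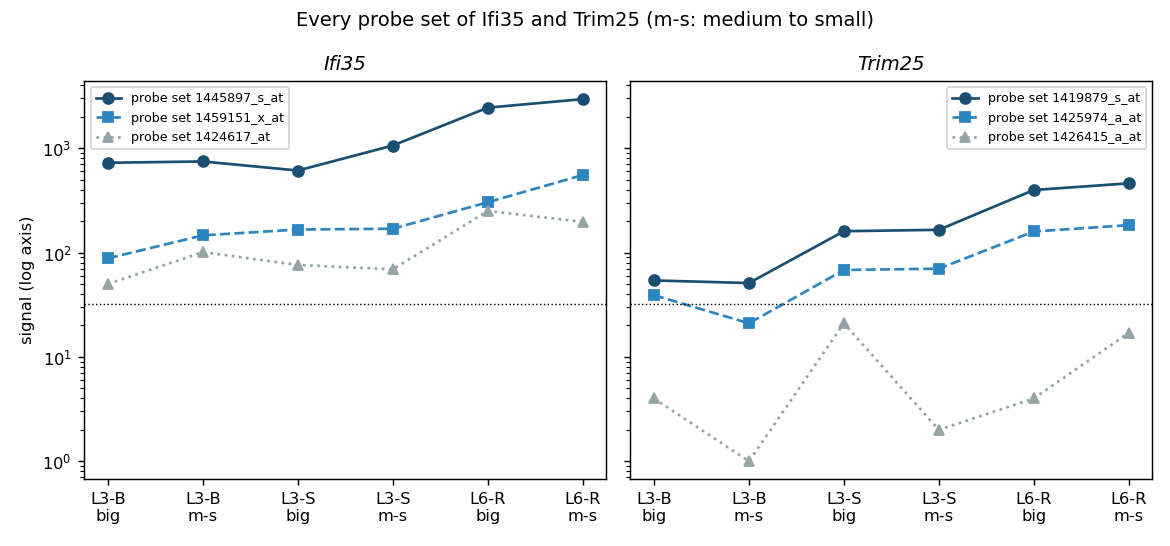
Signal (log axis) of each probe set of Ifi35 and Trim25 in the 6 arrays (m-s: medium to small), with a dotted line at 32. The 3 Ifi35 probe sets and the brighter 2 of Trim25 are highest in both L6-R arrays, up to 2946 for Ifi35 and 460 for Trim25, and the dimmest Trim25 probe set stays under 32.

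L3-S against L3-B sets dye-labelled pools of 20 neurons against control pools of 50, so label, pool size and code cannot be told apart. Of the 12 tested genes, 1 rose, 0 fell and 11 did not pass, beside 1.02% of all genes (limma; 3 were higher and 2 lower at an unadjusted p under 0.05). Trim25 rose by 1.21 ± 0.22 log2 (adjusted p = 0.0485), a call lost in 9 of 14 alternative settings, among them without L3-B medium to small (adjusted p = 0.104), L3-S big (0.0939) or L3-S medium to small (0.131). The count of 1 became 0 to 4 across settings. Ifit1 was higher by 1.72 ± 0.39 (adjusted p = 0.102) and Ifit2 by 1.40 ± 0.40 (adjusted p = 0.206), both without passing. B2m was at -0.76 ± 0.22 and Xaf1 at -0.68 ± 0.23 log2, with adjusted p of 0.202 and 0.298. Ifi35 differed by 0.13 ± 0.25 (adjusted p = 0.955). Markers of other cells moved in this comparison: Apoe, of glia, rose by 2.14 ± 0.25 log2 and Rgs5, of pericytes, by 3.32 ± 0.38 (both adjusted p = 0.00938). These were 1 of 16 tested glial and 1 of 5 tested vascular and connective tissue markers (4 and 3 higher at an unadjusted p under 0.05). Of 3 tested macrophage markers 0 passed, and Lyz1 was higher by 1.61 ± 0.31 log2 (limma adjusted p = 0.0556). Their part in the Trim25 signal was not tested.

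L6-R against L3-B, which shares the L3-B arrays with the comparison before it, gave 2 genes that rose, 0 that fell and 10 that did not pass, beside 7.51% of all genes (limma; 3 were higher and 0 lower at an unadjusted p under 0.05). The count of 2 became 4 without L3-S big or without L3-S medium to small. Trim25 rose by 2.45 ± 0.22 log2 (adjusted p = 0.000592), 5.45-fold on the scale of signal + 32. Ifi35 rose by 1.82 ± 0.25 log2 (adjusted p = 0.00382), 3.54-fold. Each kept its call in every alternative that tested it (14 for Trim25, which the upper 25% filter removes, and 15 for Ifi35). Ifit1 was higher by 1.40 ± 0.39 log2 (adjusted p = 0.0725) in both pairs, by 1.79 and 1.00. Markers of other cells moved in this comparison too: 7 of 16 tested satellite glia and Schwann cell markers rose (median 1.18 log2), as did 3 of 5 vascular and connective tissue markers (Rgs5, Dcn and Col1a2, median 1.13) and 1 of 3 macrophage markers (Lyz1, by 2.00 ± 0.31, adjusted p = 0.00614). In L6-R against L3-S, where Ifi35 and Trim25 also rose, none of these 16, 5 and 3 markers passed in limma. At an unadjusted p under 0.05, 5 glial markers were higher, and 2 vascular and connective tissue markers were higher and 1 lower. The widest of these differences were Mal at 1.63, Ncam1 at 1.47, Mbp at 1.31, Dcn at 1.30 and Rgs5 at -1.59 log2. The part of other cells in the Ifi35 and Trim25 signals was not tested. Among the 20 untested members, differences between codes ran from -0.57 to 0.74 log2 for L6-R minus L3-S, from -0.46 to 0.88 for L3-S minus L3-B, and from -0.52 to 1.03 (Irf9) for L6-R minus L3-B.

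**Figure D5:**
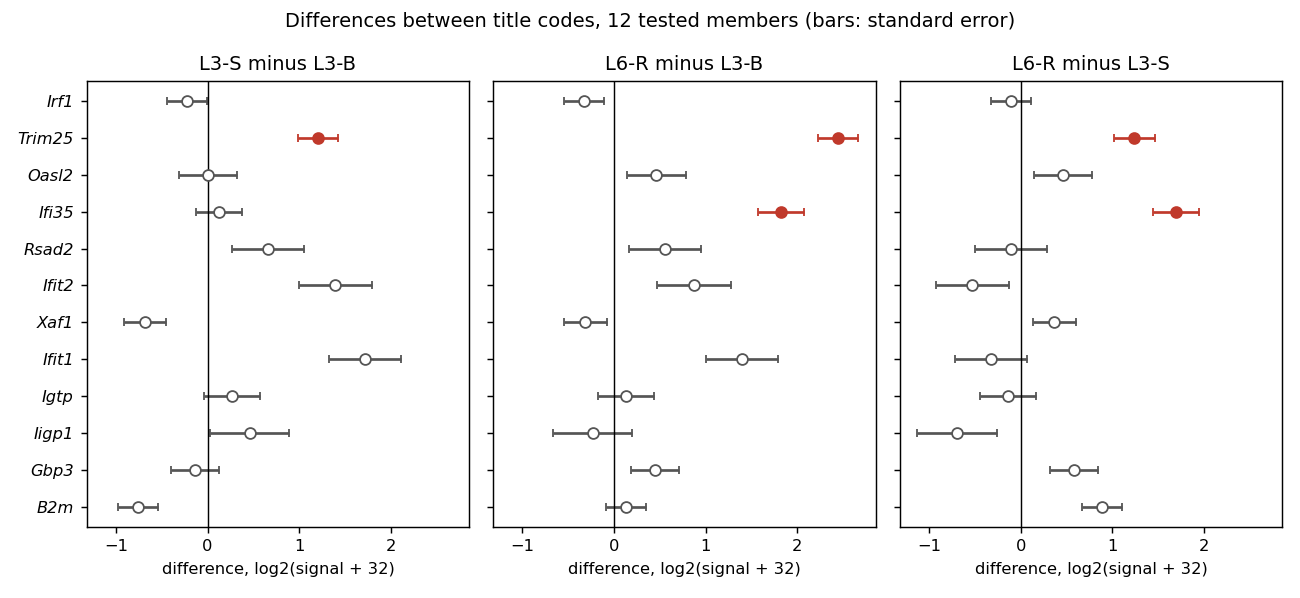
Difference between title codes in log2(signal + 32) for the 12 tested genes, 1 panel per comparison, as limma estimates (points) with standard errors (bars, n = 2 arrays per code). Red points passed an adjusted p of 0.05: Trim25 in all 3 comparisons, Ifi35 in both comparisons that involve L6-R, and no other gene.

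Other genes of the interferon pathway, listed with the members known, numbered 152, of which 123 were measured and 45 tested. In the size contrast 0 of the 45 passed with limma (4 at an unadjusted p under 0.05, namely Psmb10, Samd9l, H2-D1 and Myd88), as did 0% of all 9097 genes, where 320 had such a p and the smallest adjusted p was 0.998. The big pool was lower in all 3 codes for 8 of the 45, beside 12.6% of all tested genes, and higher for 3. Psmb10, an immunoproteasome subunit gene, had signals of 193 and 319, 202 and 338, and 110 and 216, lower in each big pool. H2-D1, a class I heavy chain gene, was at 222 and 706, 505 and 697, and 639 and 779, with its wide gap in L3-B as for Igtp. Samd9l, an antiviral effector gene, was at 56 and 102, 92 and 220, and 42 and 68. Ddx58, which encodes RIG-I, was at 191 and 234, 152 and 357, and 280 and 274, with a wide gap in L3-S only.

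The interferons themselves were near background: 10 of 19 listed were measured, 0 entered the tests, 8 stayed under 32 in all arrays, and the highest signal, 37, was that of Ifnb1 in L3-B big. Of the receptor genes, Ifngr2 was at 195 and 967 in L3-B but 590 and 470 in L3-S and then 246 and 348 for L6-R, and Il10rb at 263 to 420 throughout. The signalling genes Jak1 (1143 to 2092) and Ptpn11 (1980 to 2425) were bright in every array, as were the target genes Ifi27 (1928 to 2781) and Shisa5 (1436 to 2054), the kinase gene Tbk1 (1130 to 2033) and the chaperone genes Canx (2309 to 3238) and Calr (1423 to 2389). Adar, an RNA-editing enzyme gene, ranged from 240 to 394. Between codes, Socs3, a feedback inhibitor of cytokine signalling, was at 296 and 203, 219 and 295, and 652 and 1041. It rose in L6-R by 1.58 ± 0.30 log2 against L3-S (adjusted p = 0.0285) and by 1.63 ± 0.30 against L3-B (adjusted p = 0.0136). The phosphatase gene Ptpn1 (1.22 ± 0.24, adjusted p = 0.0181) and the galectin gene Lgals9 (1.69 ± 0.29, adjusted p = 0.00969) rose against L3-B as well. In all, 1 of the 45 rose in L6-R against L3-S (beside 3.18% of all genes past the threshold), 3 against L3-B (beside 7.51%), and 0 in L3-S against L3-B (3 higher at an unadjusted p under 0.05), and 0 fell, shares no higher than those over all genes (limma; 3, 2 and 1 were lower at an unadjusted p under 0.05 in these 3 comparisons).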

How the data were processed

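The deposited table holds the authors' linear signal intensity for 45037 probe sets and 64 control probe sets in each of 6 arrays. How probes were summarised and scaled was not given in the sources used here. With 2% of values trimmed from both ends, every array had a mean of 150, so values were used as scaled. Of the probe sets, 34945 carried 1 gene symbol, 932 several and 9160 none. An additive model, code plus size class, was fitted to log2(signal + 32) in limma 3.58.1 under R 4.3.3 (lmFit, eBayes, 2 residual and 6.46 prior degrees of freedom, two-sided) over 9097 genes, with Benjamini-Hochberg adjustment, and was tested on simulated data. The number of arrays limits precision.

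The members and gene lists were chosen with earlier results of these data known. Signals in all arrays were due for members past the threshold between codes, the 3 brightest of each role, and those lower by 1 log2 in at least 2 codes, and for other pathway genes past the threshold, with the 2 brightest of each list by range. Further genes were given after their values were seen, among them Usp18, Ddx58, Psmb10, Samd9l and H2-D1. Promoters were to run to 50 bases after the start and were shown only for the 250 before it, which left out the sensors. Alternatives changed scaling, pseudocount, filter, probe sets, RNA completeness, eBayes and the arrays used, and leaving out an array kept the same 9097 genes.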

Additional observations from a re-analysis of the deposited data

Results flagged for a closer look

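For 4 tested genes the big and the medium to small pool differed in opposite directions in different codes. With 1 array for each code and size class these differences were not tested, and their causes were not tested. For Ifit2 the size difference in L3-B (0.21 log2) exceeded that in L3-S (-1.66) by 1.86. For Gbp3 the difference in L6-R (0.22) exceeded that in L3-S (-0.65) by 0.87. For Xaf1 the difference in L3-B (0.32) exceeded that in L3-S (-0.16) by 0.48, and for Trim25 the difference in L3-B (0.06) exceeded that in L6-R (-0.20) by 0.25.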

How the results depend on the processing

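The count of 15 genes lower in every big pool was 15 under quantile normalization, a smaller (1) and a larger pseudocount and probe set means, and 16 to 21 with an array left out, when only 2 codes are compared. Genes past the threshold in L6-R against L3-S were 2, and 1 with a pseudocount of 1, no filter, the upper 25% filter or probe set means, 3 with the larger pseudocount, the Actb ratio in the fit or only the 4 arrays compared (0 to 3 with an array left out). For L3-S against L3-B the count was 1, and 0 with quantile normalization, a smaller or larger pseudocount, no filter, the upper 25% filter, probe set means or an intensity trend, 4 when the fit held the Actb ratio, 2 with only the 4 arrays compared, and 0 to 3 with an array left out. For L6-R against L3-B it was 2, and 1 with the upper 25% filter, 4 with the Actb ratio or only the 4 arrays, and 2 to 4 with an array left out. The upper 25% filter tests fewer genes, and the other causes were not tested. With an array left out, 1 code has a lone array, which is assumed to vary like the others. Leaving out L3-S big gave 3 genes in L3-S against L3-B, and leaving out L6-R big gave 0 in L6-R against L3-S. The count of 0 other pathway genes past the threshold in the size contrast was 0 throughout. With the shorter letters AANNGAAA, 70.4% of the genes with a promoter window held a match, against 26.7% of all genes. No direction reversed, but the size of the mean gap moved: over all settings it ran from -2.37 to -0.79 log2 for Iigp1, -2.08 to -0.60 for Ifit1, -2.02 to -0.77 for Rsad2, -1.88 to -0.45 for Ifit3 and -1.56 to -0.84 for Oasl2. Without either L3-S array it was -0.90 for Iigp1 and -0.62 for Ifit1, against -1.52 and -1.12 with all arrays. Trim25 in L6-R against L3-S ran from 0.74 to 1.39 log2 (adjusted p 0.000754 to 0.247), Ifi35 from 1.38 to 2.00 (3.51e-05 to 0.0527), and Trim25 in L3-S against L3-B from 0.69 to 1.62 (0.00191 to 0.239). The lowest adjusted p-values of these ranges came from the fit with the Actb ratio. That fit, those of only 4 arrays and those without an array have fewer residual degrees of freedom than the main fit. Their adjusted p-values and counts are therefore less secure. The additive fit itself pairs size classes within codes. Beyond that, no paired analysis was possible because each code and size class has 1 array and the labels share no replicate numbers. Signals under 32, 55.2% to 59.5% of an array's probe sets, resolve no order.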
